A study of Vitis vinifera with 2 samples.

Results

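A symmetric CHG pair is a place where a cytosine on one strand of the DNA faces, across a palindromic trinucleotide, a cytosine on the other strand, so that the methylation of both strands can be read at a single site. Pairs were taken as 2 cytosines labelled CHG (H is any base except G) that lay 2 bp apart on the same sequence and were each read at least 5 times in both libraries. No CG cytosine stood between them and no further CHG cytosine lay 2 bp to either side. The lower position is called the forward strand and the higher position the reverse strand. Of 3663699 candidate pairs listed in both libraries, 3429638 had no such neighbour and 2136062 also had the required reads. Their 4272124 cytosines made up 38.51% of the 11092261 CHG cytosines listed in both libraries.

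The 4X library came from the autotetraploid grapevine that colchicine treatment had given from the diploid cultivar 'Jingyanjing' (*Vitis vinifera* in the labels), and the 2X library came from the diploid itself. Both were made from terminal (tip) buds of vines under the same standard care, with the buds of several vines pooled before the DNA was extracted. Whole-genome bisulfite sequencing reads a methylated cytosine as cytosine and an unmethylated one as thymine, and the methylation level is the methylated reads as a percent of all reads. Each line had 1 library, so every test below compared 2 libraries and not 2 conditions, and ploidy, the pool of vines and the library cannot be told apart.

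CHG methylation in plants is best known from *Arabidopsis*, where a chromomethylase is drawn to chromatin whose histone H3 is methylated at lysine 9, and a histone methyltransferase is in turn drawn to methylated CHG sites. This loop keeps transposons and other silent chromatin methylated through cell division. CAG and CTG place a CHG cytosine on both strands, whereas the cytosine across from CCG belongs to a CG site. CG methylation is copied at replication by a different enzyme, which acts on sites whose new strand is still bare.

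The pairs were read at a median of 12 reads on the forward strand and 12 on the reverse strand in 4X, and 13 and 12 in 2X. Over both strands the median was 26 reads in 4X and 27 in 2X. The 19 chromosomes held 1947762 of the pairs, the random, unplaced parts of chromosomes held 63651, and the sequence named Un held 124649. The next pair along the sequence was a median of 43 bp away, and 71.4% of next pairs were within 100 bp, so neighbouring pairs shared reads. At 338 pairs a row of another context stood at the middle position, which a true CAG or CTG site cannot have, and 3277 pairs had CG rows on both sides, so that they could be 2 CCG cytosines facing away from each other. Cytosines under 3 reads are not listed, so a neighbour that was hardly read could not be seen. Pairs whose lowest of the 4 depths was 5 had a level of 25.3% in 4X and 25.8% in 2X, and those just left out, with a lowest depth of 4, had 26.01% in 4X and 26.61% in 2X.

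Most pairs were either almost free of methylation or heavily methylated. The level was under 10% at 63.3% of pairs in 4X and 63.0% in 2X, and exactly 0 at 56.6% in 4X and 55.2% in 2X. It was 50% or more at 29.9% of pairs in 4X and 29.9% in 2X, with a median of 84.4% in 4X and 84.1% in 2X among these. Levels of 10% to under 50% were found at 6.76% of pairs in 4X and 7.03% in 2X. The pairs kept their class between the libraries. Of the pairs under 10% in 2X, 98.2% were also under 10% in 4X, and of those at 50% or more in 2X, 95.1% were also at 50% or more in 4X. The middle class was less fixed, since 59.4% of its pairs in 2X were in the same class in 4X. A switch between the outer classes was rare. It was found at 657 pairs that had 50% or more in 4X and under 10% in 2X, and at 524 pairs that had under 10% in 4X and 50% or more in 2X.

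The weighted level, which sums all reads, came to 27.36% in 4X and 27.88% in 2X, with 95% Wilson limits of 27.35 and 27.37 for 4X and of 27.87 and 27.89 for 2X. The 4X minus 2X difference was -0.521 points, with a 95% half-width of 0.0153 for counting error. All 19 chromosomes had the lower weighted level in 4X. Their differences spanned -0.773 points on chromosome 13, with 26.4% in 4X and 27.2% in 2X, to -0.236 points on chromosome 15, with 34.9% in 4X and 35.2% in 2X. It was also seen on each strand, at -0.507 points on the forward and -0.535 points on the reverse strand. In windows of 1 Mb, 378 of 432 windows were lower in 4X, with a median difference of -0.547 points. The level of a window ranged over 4.73% to 71.4% in 4X and 4.95% to 71.3% in 2X.

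The difference was far smaller when each pair counted once. The mean of the pair levels was 26.74% in 4X and 26.77% in 2X, a difference of -0.0333 points, with 9 of 19 chromosomes lower in 4X. The share of reads that fell on methylated pairs also differed between the libraries. The 608095 pairs at 50% or more in both libraries took 29.1% of the pair reads in 4X and 29.7% in 2X. Their own level was 82.0% in 4X and 81.7% in 2X, so it was 0.292 points higher in 4X. The 1321396 pairs under 10% in both libraries had 0.560% in 4X and 0.641% in 2X. The pairs of neither class had 29.5% in 4X and 30.4% in 2X. The read ratio of 4X to 2X was 0.908 at the pairs methylated in both libraries and 0.935 at the pairs under 10% in both. The part of these read shares in the weighted difference was not tested.

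The 2 strands of a pair had closely similar levels. Their Pearson correlation over the 2136062 pairs was 0.942 in 4X and 0.944 in 2X, and 0.976 in 4X and 0.977 in 2X after allowance for binomial counting error. These correlations are across sites that share libraries and reads and are given as descriptions.  Among the 856276 pairs in 4X and 948998 pairs in 2X with at least 10 reads on each strand, both strands were at most 10% in 57.7% of pairs in 4X and 57.2% in 2X. Both strands were at least 50% in 30.1% of pairs in 4X and 30.4% in 2X. A strand at 50% or more faced a strand at 10% or less in 2535 pairs in 4X, or 0.296% (0.285 to 0.308, Wilson), and in 2739 pairs in 2X, or 0.289% (0.278 to 0.300). The forward strand was the higher one in 1272 of these in 4X and 1410 in 2X. Intermediate levels were mostly shared by both strands. Of pairs with a mean strand level of 20% to under 80%, the strands were within 20 points of each other in 66.0% in 4X and 67.0% in 2X, and 1.55% in 4X and 1.48% in 2X had the asymmetric form.

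**Figure D1:**
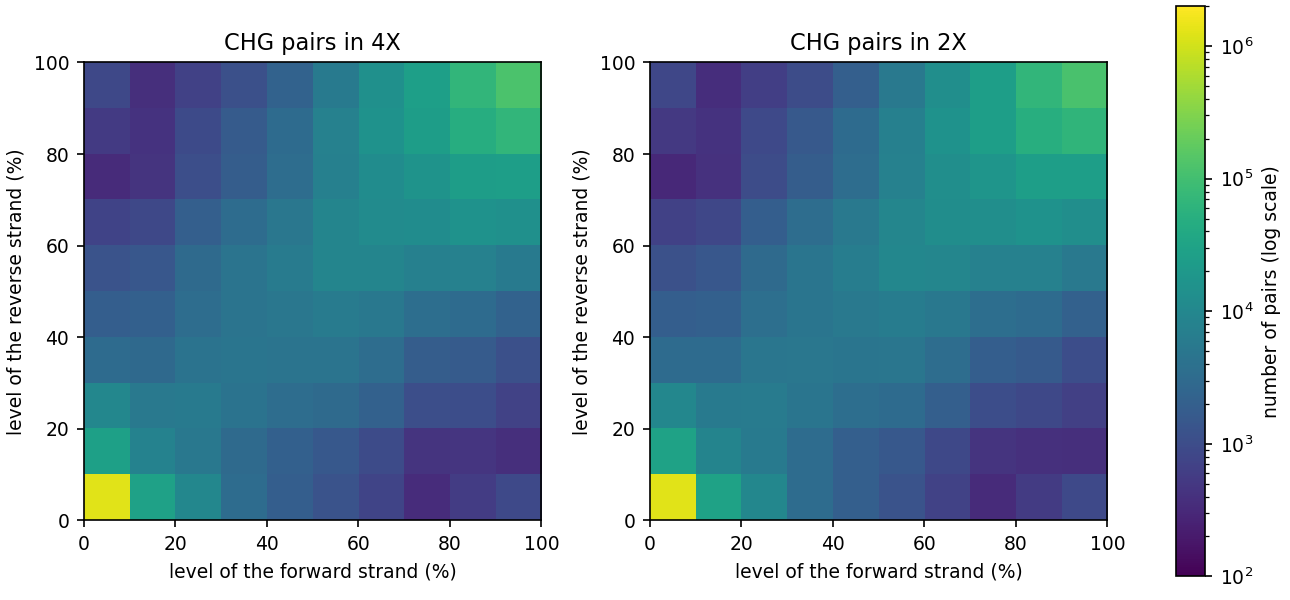
Level of the forward strand (x axis, percent) against the level of the reverse strand (y axis, percent) for the 2136062 pairs in bins of 10 points, 4X on the left and 2X on the right, with the number of pairs as colour on a log scale. Most pairs lie in the corners where both strands are low or both are high, and the corners with 1 strand under 10% and the other at 90% or more hold 885 and 860 pairs in 4X and 886 and 826 pairs in 2X.

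The plot of forward against reverse levels also shows that the most asymmetric corners were not the emptiest. With the forward strand at 90% or more and the reverse strand under 10% there were 885 pairs in 4X and 886 in 2X, while the bin with the forward strand at 70% to 80% held 356 pairs in 4X and 344 in 2X. The mirror bins held 860 pairs in 4X and 826 in 2X in the corner, and 342 in 4X and 317 in 2X at 70% to 80% on the reverse strand.

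The difference between the strands went beyond counting error. The mean squared difference of the strand levels was 166.7 squared points in 4X, of which 104.2 were expected from counting the reads, and 161.7 in 2X, of which 99.98 were expected. The root of the remainder was 7.91 points in 4X and 7.86 points in 2X. The same measure for a single strand between the 2 libraries was 6.18 points on the forward strand and 6.19 points on the reverse strand. For opposite strands of different libraries it was 8.65 and 8.62 points. The strands of a pair thus differed by more within a library than the same strand did between 4X and 2X. That order held on 19 of 19 chromosomes. The excess depended on the level of the pair. With pairs classed by their level in the other library, it was 1.78 points in 4X and 1.92 points in 2X at pairs of level 0. It was 18.2 points in 4X and 18.5 points in 2X at levels of 30% to under 50%, and 7.85 points in 4X and 7.73 points in 2X at 90% or more.

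CG dyads, the 2 cytosines of a CG site read under the same read minimum, were measured the same way. The 1398354 dyads had a weighted level of 58.8% in 4X and 58.9% in 2X. Their strand correlation was 0.925 in 4X and 0.928 in 2X, and the root excess was 9.47 points in 4X and 9.35 points in 2X. The excess was larger for dyads than for pairs on 19 of 19 chromosomes in each library. The level of the units entered this comparison. In classes set by the level in the other library, the excess was larger for dyads in each class under 70%. At 30% to under 50% it was 18.84 points in 4X and 19.02 points in 2X for dyads. It was smaller for dyads in the classes above, with 6.68 points in 4X and 6.61 points in 2X at 90% or more. Levels within a class were not equal. At 90% or more the mean level in 4X was 89.4% for pairs and 92.2% for dyads. Among units with at least 10 reads per strand and a strand at 50% or more, the other strand was at 10% or less in 0.851% of pairs and 0.452% of dyads in 4X, and in 0.823% of pairs and 0.441% of dyads in 2X. Over all units with at least 10 reads per strand the order turned, with 0.296% of pairs and 0.340% of dyads in 4X. In 2X these shares were 0.289% and 0.328%. At mean strand levels of 20% to under 80% they were 1.55% and 1.98% in 4X, and 1.48% and 1.91% in 2X.

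**Figure D2:**
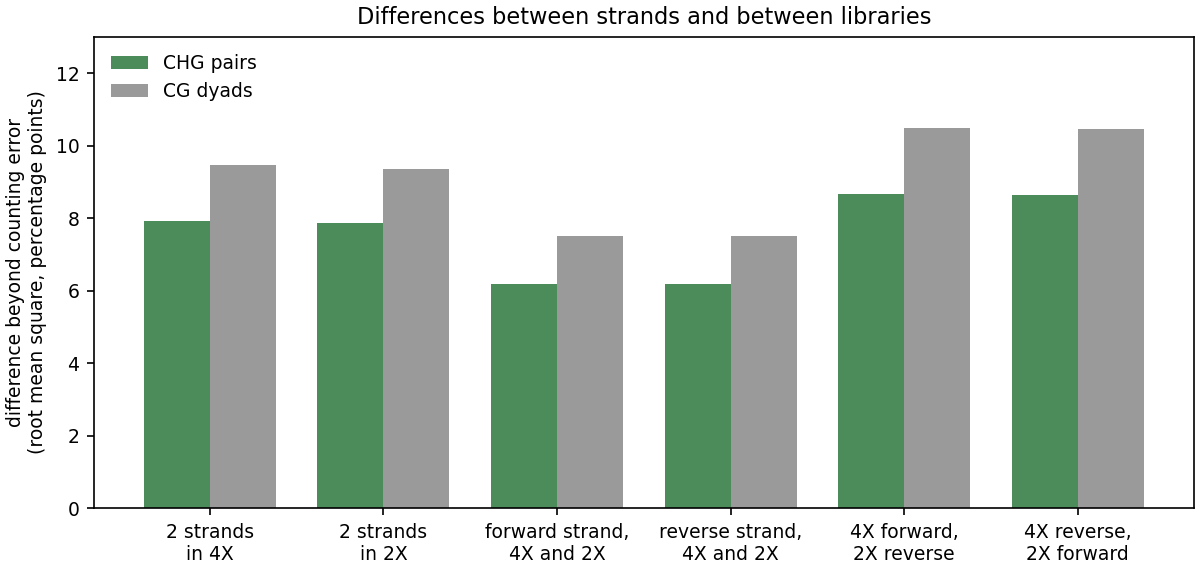
Root mean squared difference beyond binomial counting error (y axis, percentage points) for CHG pairs (green) and CG dyads (grey), between the strands of a library, between libraries on the same strand, and between opposite strands of different libraries. For pairs the strands differed by 7.91 points in 4X and 7.86 points in 2X, above the 6.18 and 6.19 points between the libraries.

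A partner strand was also compared with the strand of the next pair, to see how far symmetry went beyond the general likeness of neighbours. For pairs whose next pair was 5 to 10 bp away, the correlation with the opposite strand of that next pair was 0.917 in 4X and 0.916 in 2X, and the correlation with the own partner was 0.954 in 4X and 0.954 in 2X. The root excess was 11.6 points in 4X and 11.7 points in 2X for the next pair, and 6.70 points in 4X and 6.73 points in 2X for the partner. The same strand of the next pair correlated at 0.930 in 4X and 0.930 in 2X. With distance the likeness of neighbours fell further than that of the partners. At 1001 to 5000 bp the correlation with the opposite strand of the next pair was 0.453 in 4X and 0.455 in 2X, and that of the partners was 0.906 in 4X and 0.908 in 2X.

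**Figure D3:**
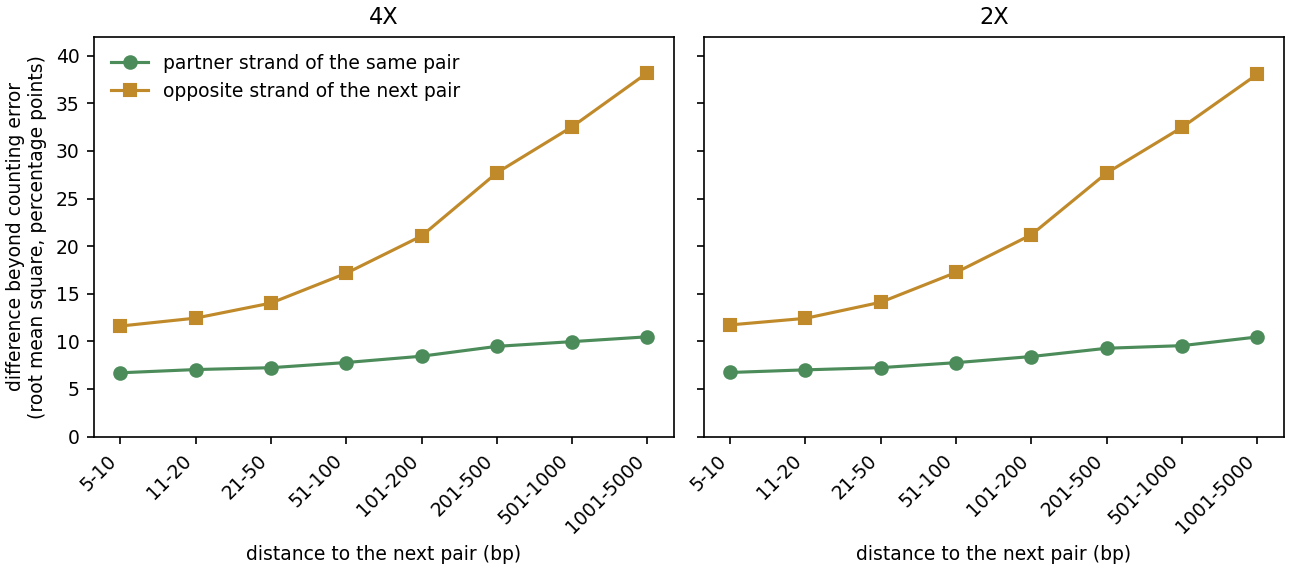
Root mean squared difference beyond counting error (y axis, percentage points) between a strand and its partner (green circles) or the opposite strand of the next pair (orange squares), by the distance to the next pair in bp (x axis), 4X on the left and 2X on the right. The difference from the next pair grows to 38.2 points in 4X and 38.1 points in 2X at 1001 to 5000 bp, against 10.5 points for the partner in each library.

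The forward strand was slightly higher than the reverse strand by summed reads. It had 27.5% against 27.2% in 4X, a difference of 0.235 points, and 27.98% against 27.77% in 2X, a difference of 0.207 points. This offset was not a common one. It was positive on 14 of 19 chromosomes in each library, with the same sign in both libraries on all 19, and was 0.0243 points in each library when every pair counted once. The widest offsets among the 19 chromosomes, picked out after their values were seen, were -2.24 points in 4X and -2.19 points in 2X on chromosome 2, and 2.01 points in 4X and 1.93 points in 2X on chromosome 16. At pairs with at least 10 reads per strand it was negative, at -0.251 points in 4X and -0.231 points in 2X.

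Pair levels were higher where the CG and CHH cytosines around them were more methylated. Within 100 bp of a pair and for surroundings read at least 10 times, pairs with CG levels under 5% had a level of 1.31% in 4X and 1.46% in 2X. Where the surrounding CG level was 80% or more, the pairs had 43.6% in 4X and 44.0% in 2X. That average joined very different pairs, since 46.2% of them in 4X and 46.0% in 2X were under 10%, while 47.6% in 4X and 47.6% in 2X were at 50% or more. Where CHH cytosines were under 1%, pairs had 3.04% in 4X and 3.15% in 2X. At CHH levels of 3% to under 6% the pairs had 73.0% in 4X and 72.5% in 2X, and at 6% to under 12% they had 79.2% in 4X and 78.8% in 2X. Of the pairs in the last class, 90.7% in 4X and 90.4% in 2X were at 50% or more. Strands were least alike in the most methylated CHH surroundings. At CHH levels of 25% or more, which 3558 pairs in 4X and 3409 in 2X had, the root excess between the strands was 19.37 points in 4X and 19.37 points in 2X, against 11.4 points in 4X and 11.4 points in 2X at 6% to under 12%.

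CHG cytosines that stand just outside a CG site, a set that holds the CCG sites, differed from the cytosines of pairs in the shape of their levels. With the same read minimum of 5 in each library there were 812751 of them, and they had a weighted level of 23.4% in 4X and 23.4% in 2X. Levels of 10% to under 50% were found at 25.04% of them in 4X and 25.52% in 2X, but at 7.33% of single pair cytosines in 4X and 7.66% in 2X. Among cytosines at 50% or more the median was 66.7% in 4X and 66.7% in 2X, against 85.7% in 4X and 84.6% in 2X for the cytosines of pairs. Their weighted level was below that of the pairs on 18 of 19 chromosomes in each library, chromosome 17 being the exception, with 22.8% in 4X and 22.7% in 2X against 21.8% in 4X and 22.3% in 2X for the pairs. The 4X minus 2X difference was -0.0485 points (half-width 0.0326) for these cytosines and -0.109 points (0.0196) for CG dyads. Both were smaller than the -0.521 points of the pairs. The half-widths take the reads of all sites as independent, though nearby sites share reads. The kinds of site were not tested against each other. This order was one of summed reads. With every unit counted once, the difference was 0.329 points for CG dyads, 0.0338 points for the cytosines outside a CG site and -0.0333 points for pairs, so its sign turned for the first 2 and it was widest for the dyads.

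Unequal strands were then tested pair by pair. A Fisher exact test, two-sided, set the methylated and unmethylated reads of the forward strand against those of the reverse strand, and p-values were adjusted by Benjamini-Hochberg over all pairs. In 4X 2766 pairs passed an adjusted p of 0.05, which is 0.129% of those tested, and in 2X 3225 pairs passed, which is 0.151%. The forward strand was higher in 1418 and the reverse strand in 1348 pairs in 4X, and the numbers in 2X were 1714 and 1511. The same test passed 0.227% of CG dyads in 4X and 0.269% in 2X. Most pairs that passed were strongly hemimethylated, with a median of 0% on the low and 94.4% on the high strand in 4X, and 0% and 93.8% in 2X. A strand at 50% or more faced one at 10% or less in 68.8% of them in 4X and 65.5% in 2X. The others had a weaker contrast. Depth limited the count. The share of pairs that passed was 0.0219% in 4X and 0.0213% in 2X at 10 to 19 reads over both strands, and 2.67% in 4X and 2.35% in 2X at 100 reads or more. The deepest pairs differed in level too. In 4X they had 15.7% on the forward and 17.3% on the reverse strand, against 46.1% and 45.3% at 50 to 99 reads. Depth and the kind of sequence cannot be told apart there. Only 84.0% of pairs in 4X and 86.7% in 2X had enough reads to pass at any methylation.

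Hemimethylation found in 1 library was found again in the other. Of the 2766 pairs that passed in 4X, 2713 (98.1%) had the same strand higher in 2X, 48 had the opposite strand higher and 5 had equal strands. Their median strand difference was 86.7 points in 4X, where they were chosen, and 79.8 points in 2X, which had no part in the choice. Of the 3225 pairs that passed in 2X, 98.4% had the same strand higher in 4X, with a median difference of 77.3 points in 4X and 84.6 points in 2X. In both libraries 1606 pairs passed with the same strand higher, which is 0.0752% of all pairs, 58.1% of the 4X list and 49.8% of the 2X list. No pair passed in both with opposite strands higher.

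**Figure D4:**
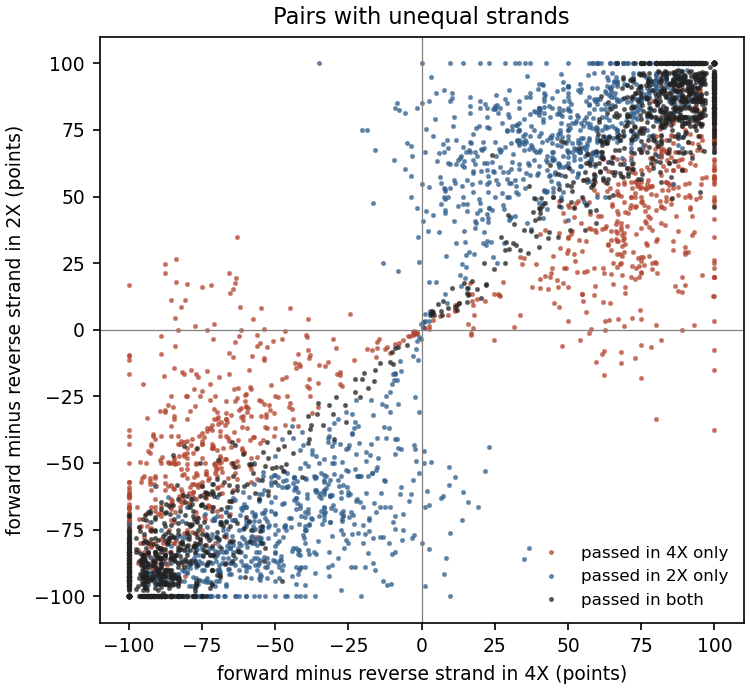
Forward minus reverse level in 4X (x axis, percentage points) against the same difference in 2X (y axis) for every pair that passed the strand test in 4X only (red), in 2X only (blue) or in both (black). Of the pairs that passed in 4X 98.1% have the same sign in 2X, and all 1606 pairs that passed in both lie in the 2 quadrants of equal sign.

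The 1606 pairs asymmetric in both libraries seldom had a near neighbour that passed as well, but had one more often than all pairs did. The forward strand was higher in 862 and the reverse strand in 744, and in 798 pairs the low strand had no methylated read in either library. They were deeper than all pairs, with a median of 35 reads in 4X and 38 in 2X. Surrounding CHH cytosines had 3.95% in 4X and 3.98% in 2X, against 1.84% in 4X and 1.90% in 2X for all pairs, and 3.64% in 4X and 3.65% in 2X for the pairs that were at 20% to under 80% in 2X. For 1273 of them another pair lay within 100 bp, and its mean level was 20.65% in 4X and 21.03% in 2X. The nearest such neighbours of all pairs had 24.5% in 4X and 24.6% in 2X, and those of the pairs at 20% to under 80% in 2X had 63.8% in 4X and 63.6% in 2X. The asymmetric pairs were thus close to the intermediate pairs in the CHH level around them, and close to all pairs in the level of their neighbours. The nearest neighbour itself passed in both libraries at 114 of the 1273 (8.96%), with the same strand higher at 110 and the opposite strand at 4. Among all pairs with a neighbour within 100 bp, the neighbour passed in both libraries at 0.0654%. The strands of the neighbours of the asymmetric pairs differed by a mean of 11.05 points in 4X and 10.94 points in 2X. For the neighbours of all pairs this was 5.51 and 5.52 points. For those of the pairs at 20% to under 80% in 2X it was 14.85 and 15.04 points. Pairs this close share reads. A row stood between the 2 cytosines at 4 of the 1606 pairs (0.249%, against 0.0158% of all pairs). CG rows stood on both sides at 12 of the 1606, against 3277 of all 2136062 pairs, so these entries could be no symmetric CHG sites. The reads of the 2 strands come from different molecules, so that both strands of 1 molecule were not seen, and a thymine in the vines in place of a reference cytosine would read as an unmethylated strand; its part in these pairs was not tested.

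By the rule for named pairs, 3 pairs are given for each direction. The pair at positions 289 and 291 of chromosome 15 had 94.9% on the forward strand (1746 of 1839 reads) and 23.6% on the reverse strand (661 of 2801) in 4X, and 94.7% (1519 of 1604) and 23.3% (632 of 2717) in 2X. A pair on the sequence Un at 25828428 and 25828430 had 94.7% and 54.6% in 4X (1667 and 1480 reads) and 94.5% and 52.7% in 2X (1271 and 1335 reads). The entry at 260 and 262 of chromosome 15, with 54.8% and 17.4% in 4X and 53.5% and 16.6% in 2X, had a row between its cytosines and CG rows on both sides, so it was not a symmetric CHG site. All 3 had depths far above the median, and the strands differed by nearly the same amount in both libraries.

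With the reverse strand higher, the pair at 14860311 and 14860313 of chromosome 13 had 0 of 36 forward reads and 57 of 62 reverse reads methylated in 4X, and 0 of 27 and 58 of 58 in 2X (Fisher exact test, adjusted p = 1.45e-16 in 4X and 1.08e-17 in 2X). The pair at 9909796 and 9909798 of chromosome 9 had 13.4% and 88.7% in 4X and 10.2% and 76.1% in 2X (Fisher exact test, adjusted p = 5.7e-14 in 4X and 5.47e-14 in 2X). The CHH level around it was 78.2% in 4X and 65.5% in 2X, far above the usual. The pair at 14950121 and 14950123 of chromosome 9 had 6.35% and 91.2% in 4X and 3.75% and 81.6% in 2X (Fisher exact test, adjusted p = 1.08e-12 in 4X and 1.79e-13 in 2X). The named pairs were taken only from those that passed in both libraries with the same strand higher. That the libraries agreed in direction was thus set by the choice.

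Pairs that differed between 4X and 2X were found with the same test on the reads of both strands together. In 4X 1387 pairs were higher, which is 0.0649% of those tested, and 864 were lower, which is 0.0404%. An unadjusted p under 0.05 was found at 62826 pairs, or 2.94%. The pairs that were higher in 4X had a median level of 73.3% in 4X and 11.5% in 2X, and those that were lower had 8.82% in 4X and 62.5% in 2X.

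The differences were shared by both strands. Both strands had the same sign at 1378 of the 1387 higher pairs (99.4%) and at 856 of the 864 lower pairs (99.1%), and 1257 of the higher and 742 of the lower pairs differed by at least 25 points on each strand. As the test used the sum of the strands, each strand was also tested by itself, so that the other one was free of the choice. The forward strand passed at 0.0147% and the reverse strand at 0.0131% of pairs. Of 236 pairs higher in 4X on the forward strand, 93.6% were also higher on the reverse strand, with a median difference of 53.7 points there. Of 219 pairs higher on the reverse strand, 96.3% were also higher on the forward strand, with a median of 58.7 points. Of 79 pairs lower on the forward strand 86.1% were lower on the reverse strand, and of 60 lower on the reverse strand 57 were lower on the forward strand, with medians on the other strand of -28.6 and -46.3 points. All 47 pairs that passed on both strands had the same sign on both.

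**Figure D5:**
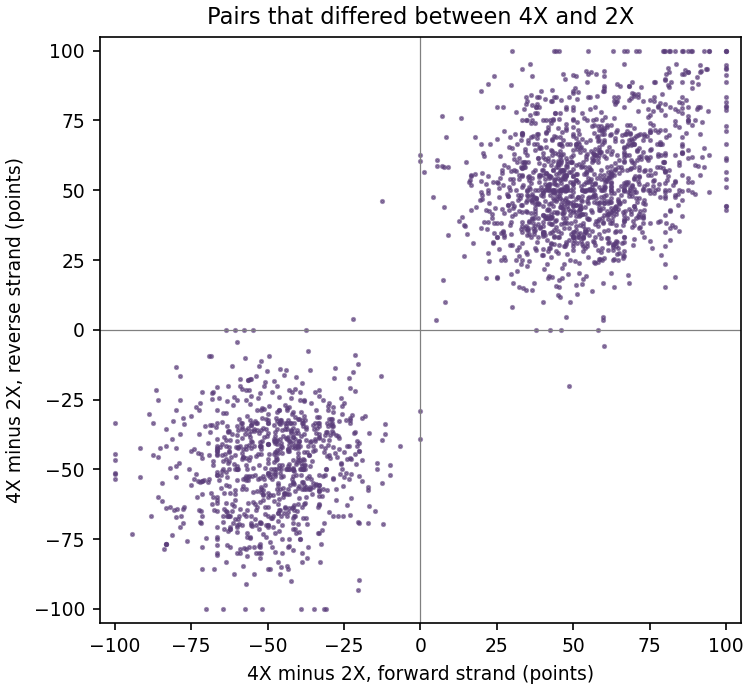
4X minus 2X on the forward strand (x axis, percentage points) against 4X minus 2X on the reverse strand (y axis) for the pairs that passed the test between the libraries on summed strands. Nearly all of the 1387 higher pairs lie in the upper right quadrant and nearly all of the 864 lower pairs in the lower left one.

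Of the 2251 pairs that differed between the libraries, 3 (0.133%) were among the 4385 pairs with unequal strands in either library, a list that held 0.205% of all pairs. The lists share their reads and were not tested against each other.

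CG cytosines around the changed pairs moved in the same direction more often where 4X was higher. Of the 980 higher pairs with CG reads to compare within 100 bp, 77.1% had a higher CG level in 4X, with a median difference of 13.2 points. Of the 514 lower pairs, 58.9% had a lower CG level in 4X, with a median difference of -1.76 points. CHH cytosines moved in the direction of the pair at 76.1% of the higher and 77.3% of the lower pairs, by a median of 0.607 and -0.450 points. The same shares over all pairs are not given here, so these shares have no background to be set against. Around all pairs the CG level was 55.2% in 4X and 55.6% in 2X, and the CHH level was 1.84% in 4X and 1.90% in 2X. The contrast between the 2 directions was not tested, since neighbouring pairs share these cytosines.

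Among the named pairs, 3 that were higher in 4X had almost no methylated read in 2X. The pair at 10782364 and 10782366 of chromosome 8 had 18 of 24 and 28 of 40 reads methylated on its strands in 4X, and 0 of 38 and 1 of 55 in 2X (Fisher exact test, adjusted p = 2.52e-17). The pair at 17135744 and 17135746 of chromosome 12 had 24 of 24 and 19 of 20 in 4X, and 0 of 11 and 0 of 27 in 2X (Fisher exact test, adjusted p = 8.12e-17). Its 4 surrounding CG cytosines had 72.8% in 4X and 2.47% in 2X. The pair at 185167 and 185169 of chromosome 3 had 19 of 20 and 27 of 29 in 4X, and 2 of 24 and 0 of 29 in 2X (Fisher exact test, adjusted p = 8.12e-17), and its surrounding CG level was 96.3% in 4X and 0% in 2X. Around the pair of chromosome 8 the CG level was 49.3% in 4X and 9.18% in 2X, so at all 3 the CG cytosines nearby were higher in 4X as well. These were 2 cytosines at the pair of chromosome 8 and 4 at that of chromosome 3.

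Of the 3 pairs named as lower in 4X, the one at 24684109 and 24684111 of chromosome 18 had 0 of 26 and 0 of 16 methylated reads in 4X, and 17 of 18 and 22 of 30 in 2X (Fisher exact test, adjusted p = 9.61e-12). The pair at 19690499 and 19690501 of chromosome 19 had 0 of 30 and 0 of 13 in 4X, and 24 of 31 and 14 of 22 in 2X (Fisher exact test, adjusted p = 7.33e-10). Its surrounding CG level was 45.7% in 4X and 46.4% in 2X. The pair at 5424371 and 5424373 of chromosome 17 had 3 of 24 and 1 of 11 in 4X, and 26 of 27 and 7 of 8 in 2X (Fisher exact test, adjusted p = 1.86e-08), with a surrounding CG level of 94.1% in 4X and 100% in 2X. At the last 2 pairs CHG methylation was low in 4X while the few CG cytosines nearby had similar levels in both libraries. There were 4 such cytosines at the pair of chromosome 19 and 2 at that of chromosome 17. The pair of chromosome 18 had 0.

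Some changed pairs lay close together, though most were the only such call in their window. Neighbouring pairs share reads, and grouping was not tested. In windows of 1000 bp, the higher pairs fell in 1071 of 311667 windows, and 37.3% of them were in the 201 windows that held 2 or more. The lower pairs fell in 743 windows, and 22.9% of them were in the 77 windows with 2 or more. The window at 3810001 to 3811000 of chromosome 9 held 15 pairs, of which 13 were higher in 4X and 10 passed the test. Its level was 81.7% in 4X and 30.4% in 2X, with surrounding CG levels of 87.2% in 4X and 12.3% in 2X. Single pairs there ranged over 0% to 100% in 4X and 0% to 87.5% in 2X. The window at 3192001 to 3193000 of chromosome 19 held 8 pairs, of which 6 passed as higher, with 91.6% in 4X and 22.3% in 2X, while the CG level was 100% in both. In the other direction, the window at 14773001 to 14774000 of chromosome 11 held 15 pairs, all lower in 4X and 7 of them past the test, with 11.9% in 4X and 55.6% in 2X and surrounding CG levels of 75.3% in 4X and 85.1% in 2X. There the forward strand had 21.6% and the reverse strand 1.64% in 4X, and 63.5% and 51.6% in 2X. The window at 5424001 to 5425000 of chromosome 17 held 6 pairs, all lower in 4X and 5 past the test, with 10.5% in 4X and 59.9% in 2X and CG levels of 92.1% in 4X and 94.4% in 2X.

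Single cytosines gave far fewer calls than the joined strands, but with fewer reads each and an adjustment over more units. The part of these in the lower count was not tested. Tested 1 by 1 over all 11092261 CHG cytosines of both libraries, 631 passed, or 0.00569%. Of these, 437 belonged to the pairs, with 354 higher and 83 lower in 4X, which is 0.0102% of the pair cytosines. The 4404155 cytosines of no pair with at least 5 reads gave 194, or 0.0044%.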

How the data were processed

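The 2 libraries were made by whole-genome bisulfite sequencing of pooled buds, 1 of 4X and 1 of 2X, grouped by the ploidy in their labels. Before deposit the authors had dropped reads of low quality and aligned the rest, which were paired, to grape with a tool their methods spell Bimark. For its version, the genome build, duplicate removal and the conversion rate, nothing is stated in the sources used here, and positions are in the build of the files. The deposited methylation level is a percent and equalled methylated over all reads in every line. The deposited counts give, per cytosine, how many reads were methylated and how many were not, without normalization, and every listed cytosine had at least 3 reads. Cytosines of no defined context (6 in 4X and 10 in 2X) were left out.

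Pair reads totalled 63440253 in 4X and 68489890 in 2X. Levels were read sums with 95% Wilson intervals. Intervals cover counting error only, because a molecule may have been read more than once. They also take the reads of nearby sites as independent, though such sites share reads, so they are too narrow. The squared strand difference expected from binomial counting was subtracted from the observed one. Two-sided Fisher exact tests were adjusted by the Benjamini-Hochberg method over all pairs, with a threshold of 0.05, and were tested on simulated data. Alternatives changed the read minimum, the depth limit, the sequences, the isolation rule, the summary and the test. The named pairs are, for each direction, the 3 of smallest adjusted p, where larger differences settle ties. For strands they were taken from pairs that passed in both libraries with the same strand higher, by the larger p of both libraries. The named windows are the 2 of 1000 bp with most calls in each direction. Named chromosomes have the largest and the smallest difference. The members and lists were chosen with earlier results of these data known. Genes and sequences were not analysed here, as an annotation and genome of the build were not used. Software was numba 0.67.0, pyarrow 21.0.0, pandas 2.3.3, matplotlib 3.10.9, scipy 1.17.1 and numpy 2.4.6 under Python 3.11.15.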

Additional observations from a re-analysis of the deposited data

Results flagged for a closer look

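Pairs with at least 5 reads on each strand in 1 library, but with a strand not listed in the other, entered no comparison and are given because they lie outside the main measurement. In 4X 261370 such pairs had a weighted level of 26.98% (Wilson interval 26.94 to 27.02) at a mean of 10.22 reads per strand. In 2X 298900 such pairs had 29.12% (29.08 to 29.15) at a mean of 11.04 reads per strand. The pairs of the 2 sets are different, so these levels were not compared.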

How the results depend on the processing

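No paired analysis was possible because 4X and 2X were read in 1 library each. The level difference of the pairs, 4X minus 2X, was -0.552 points at a minimum of 3 reads and -0.0333 points as the mean of pair levels. The difference was negative under every alternative run. The forward minus reverse offset turned negative at a minimum of 10 reads (-0.251 points in 4X and -0.231 points in 2X). It was 0.459 in 4X and 0.418 in 2X at 3 reads, 0.364 and 0.302 without the deepest pairs, 0.340 and 0.298 on assembled chromosomes, 0.262 and 0.234 with no CG row from 2 bp before to 2 bp after the pair, 0.211 and 0.186 without the isolation rule, and 0.0243 in each as the mean of strand levels. The strand correlation was 0.951 in 4X and 0.952 in 2X at 10 reads, 0.932 and 0.934 at 3 reads, 0.943 and 0.944 on assembled chromosomes, 0.942 and 0.943 without the isolation rule, and 0.913 and 0.907 as Spearman's rho. Pairs with unequal strands numbered 1751 in 4X, 1905 in 2X and 1058 in both at 10 reads, where 569037 pairs were tested. A rule of size with no test (at least 50% against at most 10%) gave 7986 in 4X, 7650 in 2X and 3078 in both. Tested on 1 strand at a time, 236 pairs on the forward and 219 on the reverse strand were higher in 4X, and 79 and 60 were lower. Where no cause follows from fewer reads or pairs, the cause was not tested. Under the other alternatives every count stayed within 1.5 times its main value, with 2285 to 3292 pairs of unequal strands in 4X, 2700 to 3813 in 2X and 1306 to 1877 in both, and levels and correlations moved by less than their 95% half-width for counting or sampling of pairs. Depth limits the calls, as 84.0% of pairs in 4X and 86.7% in 2X had the reads to pass the strand test.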
